A study of Mus musculus with 4 samples.

Results

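Developing B cells were detected in tibial muscle as 333 of the 59824 cells kept from 4 single-cell RNA sequencing libraries, 1 of uninjured and 3 of injured muscle. A cell was counted among them when it held at least 2 unique molecular identifiers (UMIs, each one captured transcript) of Cd79a and Cd79b together, at least 1 UMI over Vpreb1, Igll1, Dntt and Rag1, and at most 1 UMI of Siglech, with at most 10% of its UMIs from mitochondrial genes. The cells were therefore chosen on the measured UMIs of these 7 genes, and the levels of these genes are given as a description. Cells that met the Cd79a, Cd79b and Siglech limits without any UMI of the 4 progenitor genes, 2358 in all, are called other B lineage cells. They served for comparison, and a progenitor whose few transcripts were missed is among them.

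Every library came from C57BL/6 mice of the Nse-Bmp4 genotype, 6-8 weeks old, so the Uninjured group carried the transgene as well. In these mice a neuron-specific enolase promoter drives Bmp4 expression, and muscle injury is followed by heterotopic ossification. The groups were uninjured tibial muscle (Uninjured) and muscle at 1, 3 and 7 days after cardiotoxin injury (1 dpi, 3 dpi and 7 dpi). Each group was 1 library made from 3 muscles pooled after collagenase digestion, with no replicate library, so a difference between time points and one between libraries cannot be told apart. The libraries held 12031, 11722, 15160 and 23752 barcodes and 112317902, 91146335, 116346301 and 129007669 UMIs in the order Uninjured, 1 dpi, 3 dpi and 7 dpi. Between 30 and 95 barcodes were shared by any pair of libraries, and none of these was a progenitor in both. The muscle stem cell genes Pax7, Myf5 and Myod1 together had at least 2 UMIs in 251, 123, 598 and 271 kept cells, as a check of the tissue.

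B cells are made in the adult bone marrow in ordered steps. Pro-B cells join heavy chain gene segments with the Rag1 and Rag2 recombinase, while terminal transferase (Dntt) adds bases at the joints. A finished heavy chain pairs with the surrogate light chain, made of Vpreb1 or Vpreb2 with Igll1 (lambda 5), to form the pre-B cell receptor, which with interleukin 7 drives a burst of division. The cells then stop dividing, express Rag1 again and rearrange a light chain, first kappa, before they leave the marrow as immature B cells.

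The genes of the surrogate light chain lie side by side, and the sequence before each start is shown because Vpreb1 and Igll1 were mostly detected in the same cells. On GRCm38, in the GENCODE vM21 annotation, Igll1 lies at chr16:16860671-16863985 and Vpreb1 at chr16:16868403-16870843, both on the minus strand and 4417 bases apart. RefSeq places the start of Vpreb1 farther downstream than GENCODE does, so the Vpreb1 window lies inside the GENCODE gene. The 250 bases before each RefSeq start (GRCm38.p6, minus strand, chr16:16869256-16869505 for Vpreb1 and chr16:16863986-16864235 for Igll1) are printed 5′ to 3′, with matches to the E-box letters CANNTG, which read the same on both strands, in capitals.
Vpreb1: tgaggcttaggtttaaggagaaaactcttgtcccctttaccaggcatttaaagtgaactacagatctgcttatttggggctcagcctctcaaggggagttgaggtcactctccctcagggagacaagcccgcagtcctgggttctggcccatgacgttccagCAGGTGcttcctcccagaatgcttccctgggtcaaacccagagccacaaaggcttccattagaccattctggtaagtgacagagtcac
Igll1: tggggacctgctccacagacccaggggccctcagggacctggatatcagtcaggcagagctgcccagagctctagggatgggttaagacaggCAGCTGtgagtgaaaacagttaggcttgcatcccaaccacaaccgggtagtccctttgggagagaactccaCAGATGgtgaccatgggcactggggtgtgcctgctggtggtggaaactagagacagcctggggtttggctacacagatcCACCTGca
The Vpreb1 window held 1 match and the Igll1 window 3. Of 32851 promoter windows of this length, 66.2% held at least 1 match and 12.2% held at least 3. These are matches of letters only, from which nothing is drawn about a factor. Vpreb2 lies at chr16:17980428-17981273 on the plus strand, and its transcript was identical to that of Vpreb1 at 739 of 759 aligned bases (97.4%). UMIs of these paralogs can therefore be split or lost in counting, and Vpreb2 levels are uncertain.

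Progenitors were few in uninjured muscle, common at 1 and 3 dpi and few again at 7 dpi. They numbered 8 in Uninjured, 194 at 1 dpi, 127 at 3 dpi and 4 at 7 dpi. As a share of all B lineage cells this was 2.82% (95% Clopper-Pearson interval 1.22 to 5.47, 8 of 284 cells), 11.9% (10.3 to 13.5, 194 of 1633), 26.3% (22.5 to 30.5, 127 of 482) and 1.37% (0.374 to 3.47, 4 of 292). These intervals and those below cover counting error only. The share was 9.06 percentage points higher at 1 dpi than in Uninjured (6.00 to 11.4) and 14.5 points higher at 3 dpi than at 1 dpi (10.2 to 18.9), and at 7 dpi it was below that at 3 dpi by between 20.6 and 29.3 points. The highest share of B lineage cells, at 3 dpi, did not fall together with the highest share of all cells. Of all kept cells progenitors made up 0.0676%, 1.79%, 0.900% and 0.0174%, while other B lineage cells made up 2.33%, 13.3%, 2.51% and 1.25%. Between 1 and 3 dpi both kinds of cell therefore took a smaller share of the library, and the other B lineage cells lost more of theirs. Shares do not tell more progenitors from fewer cells of another type.

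**Figure D1:**
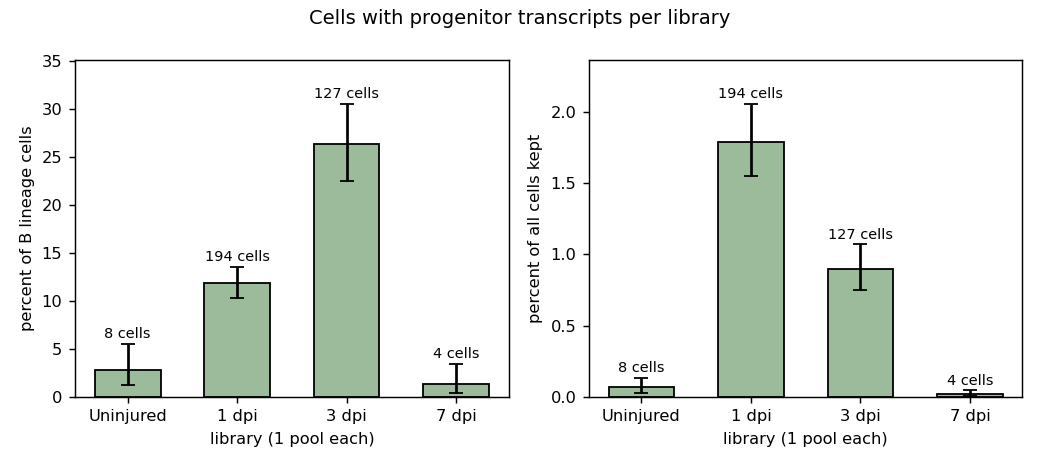
Progenitors as a percent of B lineage cells (left) and of all kept cells (right) in each library, with 95% Clopper-Pearson intervals and the number of cells above each bar. The left panel is highest at 3 dpi (26.3%) and the right panel at 1 dpi (1.79%).

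Cells with genes of other blood cell types were also more numerous at 1 and 3 dpi. Cells with at least 10 UMIs over the granulocyte progenitor genes Mpo, Elane, Prtn3 and Ctsg numbered 5, 269, 339 and 0 in the order Uninjured to 7 dpi. As shares of kept cells these were 0.0423%, 2.48%, 2.40% and 0%. Cells with at least 10 UMIs over Ngp, Camp and Ltf, granule genes of maturing neutrophils, numbered 27, 413, 363 and 57 (0.228%, 3.81%, 2.57% and 0.248%). At least 3 UMIs of Siglech, a plasmacytoid dendritic cell receptor, were found in 1, 61, 112 and 8 cells (0.00846%, 0.562%, 0.793% and 0.0347%). At least 2 UMIs over Cdh5 and Pecam1, genes of endothelium, were found in 73, 499, 350 and 212 cells, but 37 and 12 of those at 1 and 3 dpi were progenitors, since Pecam1 was in 43.3% and 22.0% of progenitors and Cdh5 in 2.06% and 1.57%. Pecam1 was also in 37.4% and 24.8% of other B lineage cells at 1 and 3 dpi, so these counts can hold such cells too. Whether marrow entered the digested tissue was not tested.

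The background was read from cells with at least 3 UMIs of the collagen gene Col1a1 and none of the leukocyte gene Ptprc, called Col1a1 cells. Ptprc had a UMI in 69.6% and 47.2% of progenitors at 1 and 3 dpi, so its absence does not exclude a blood cell. The whole progenitor gate was met by 1 of 9354, 6 of 3549, 4 of 6086 and 0 of 18485 Col1a1 cells, in the same order, and these cells are among the 333. Their median depth was 9258, 8576, 6990 and 3336 UMIs, above that of the progenitors at 3370, 3847, 1986 and 1316. Rag1 was found in 0, 8, 5 and 3 of these cells, Dntt in 0, 11, 14 and 5, and Igll1 in 1, 3, 1 and 0. Vpreb1 was found in 63, 43, 55 and 69 of them. The GENCODE gene of Vpreb1 overlaps 108 bases of Top3b, a topoisomerase gene on the other strand at chr16:16870736-16892990, in a stretch before the RefSeq start. Top3b had a UMI in 23.8%, 25.6%, 25.5% and 18.8% of the Col1a1 cells with Vpreb1 and in 17.2%, 18.9%, 19.2% and 10.4% of those without it. The part of Top3b in the Vpreb1 counts was not tested. A progenitor found by Vpreb1 alone was 1 of 8 in Uninjured, 9 of 194 at 1 dpi and 5 of 127 at 3 dpi.

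At 1 and 3 dpi most progenitors lay above the lower limit of 1 UMI. The 4 progenitor genes had a median sum of 1 UMI in Uninjured, 4 at 1 dpi, 3 at 3 dpi and 3.5 at 7 dpi. A sum of exactly 1 UMI was held by 6, 50, 42 and 1 of the cells. Among the 50 such cells at 1 dpi, 78% held Vpreb3 and 30% the mature B cell antigen Ms4a1 (CD20), compared with 96.5% and 13.9% of the 144 cells with 2 or more UMIs and with 43.6% and 79.2% of other B lineage cells. At 3 dpi the shares with Vpreb3 were 90.5%, 92.9% and 45.9% and those with Ms4a1 were 21.4%, 9.41% and 49.6%. The cells at the limit were thus between the other progenitors and other B lineage cells in both genes. In level, Vpreb3 at 1 dpi was at 755 CPM in them, 1372 CPM in cells with 2 or more UMIs and 212 CPM in other B lineage cells, and Il7r at 124, 291 and 28.9 CPM. Just outside, with 1 UMI of Cd79a and Cd79b, lay 0, 11, 15 and 3 cells. With neither of these but at least 2 UMIs of the progenitor genes there were 1, 20, 27 and 1 cells, and the Siglech limit removed 0, 2, 1 and 0.

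Of the 4 genes, Rag1 was the one found in most progenitors at 1 and 3 dpi. It was found in 6 of 8, 155 of 194, 112 of 127 and 2 of 4 cells, from Uninjured to 7 dpi, at 153, 358, 580 and 305 CPM (UMIs per 1000000 UMIs, summed over the progenitors of a library). Vpreb1 was found in 2, 73, 30 and 3 cells, Igll1 in 1, 66, 24 and 1, and Dntt in 0, 53, 19 and 2. The genes split the cells into groups. At 1 dpi 113 cells held Rag1 alone, 39 held all 4 genes, 15 held Vpreb1 with Igll1 and 9 held these with Dntt. At 3 dpi the numbers with Rag1 alone and with all 4 genes were 92 and 15, and 6 cells held Vpreb1 with Igll1 only. For the description below, the cells were divided after these counts had been seen into those with Dntt (53 and 19 cells at 1 and 3 dpi), those with Vpreb1 or Igll1 but neither Dntt nor Rag1 (26 and 12), those with Vpreb1 or Igll1 and Rag1 without Dntt (2 and 4) and those with Rag1 alone (113 and 92).

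**Figure D2:**
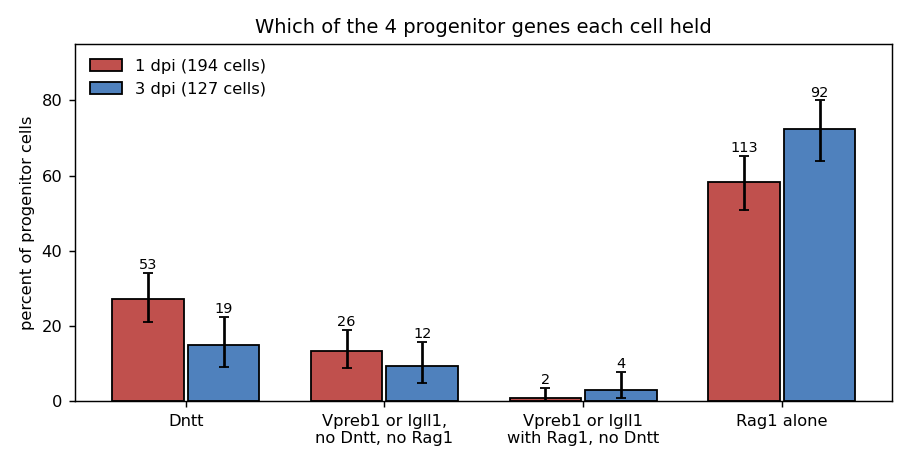
Percent of the progenitors at 1 dpi (red) and 3 dpi (blue) in each of the 4 groups by detected gene, with 95% Clopper-Pearson intervals and cell numbers. Cells with Rag1 alone were 58.2% at 1 dpi and 72.4% at 3 dpi, and cells with Dntt were 27.3% at 1 dpi.

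The label was checked on genes that did not enter the choice of cells. At 1 and 3 dpi, the libraries with at least 20 progenitors, levels were compared between progenitors and other B lineage cells of the same library. No test was run, since the planned test over libraries asked for at least 3 of that size. A gene was counted as higher or lower when its CPM differed by at least 2-fold in the same direction in both libraries. Of 8895 genes with at least 20 UMIs over both kinds of cell in each library, 399 (4.49%) were higher in progenitors and 287 (3.23%) were lower, and the median log2 ratio over all of them was 0.15 at 1 dpi and 0.20 at 3 dpi. The lists are given next, each with its own counts.

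Among 10 measured genes of the pre-B cell receptor and its signalling, 2 were higher and 1 was lower, with medians of 0.18 and 1.16 on the log2 scale. Vpreb3, a chaperone-like relative of Vpreb1, stood at 1220 CPM in progenitors and 212 CPM in other B lineage cells at 1 dpi (5.75-fold, 95% interval 5.37 to 6.16) and at 1385 and 292 CPM at 3 dpi (4.75-fold, 4.22 to 5.35). It was found in 91.8% and 92.1% of progenitors, compared with 0.789% and 0.394% of the Col1a1 cells. Blnk, the adaptor below the receptor, was 2.16-fold and 2.63-fold higher. Ighm, the mu heavy chain constant region, was found in every progenitor at 1 and 3 dpi and was 1.75-fold and 2.42-fold higher. Bank1, a scaffold of mature B cell receptor signalling, was at 19.2 CPM in progenitors and 376 CPM in other B lineage cells at 1 dpi, and at 20.8 and 115 CPM at 3 dpi. Vpreb2, too sparse for the count, had 99 and 18 UMIs in progenitors and none in other B lineage cells, a contrast that is not independent of the choice of cells, as its transcript is nearly that of Vpreb1.

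Of 10 measured genes of recombination and end joining, 6 were higher and none was lower, with medians of 1.53 and 1.44. Rag2, the partner of Rag1, had 70 UMIs in 49 progenitors at 1 dpi and 18 UMIs in 14 progenitors at 3 dpi, compared with 5 and 4 UMIs in other B lineage cells. The ratio was 65.5 (26.8 to 208) and 15.6 (5.12 to 63.2). Lig4, the ligase that seals the ends, was 9.95-fold and 4.70-fold higher, and Xrcc6 (Ku70), which binds them, 8.53-fold and 5.60-fold. Its partner Xrcc5 (Ku80) had few UMIs, 17 and 10 in progenitors, and ratios with intervals of 0.527 to 1.61 and 0.638 to 3.28. Prkdc, Atm and Dclre1c were not counted either. Their ratios at 1 and 3 dpi were 1.28 and 1.05, 0.968 and 2.10, and 0.634 and 1.91. For Dclre1c the interval at 1 dpi, 0.414 to 0.937, lay below 1. Hmgb1 and Hmgb2, DNA-bending cofactors of the recombinase that also rise in dividing cells, were 2.47-fold to 3.54-fold higher. The list thus combined enzymes of joining with genes of division.

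Of 22 transcription factors of the B lineage, 7 were higher and none lower, with medians of 0.67 and 0.84. Lef1, which is used in pro-B and pre-B cells, was at 239 and 5.24 CPM at 1 dpi (45.6-fold, 32.5 to 65.9) and at 139 and 7.22 CPM at 3 dpi (19.3-fold, 10.4 to 39.2). It was found in 42.3% and 22.0% of progenitors and in 2.29% and 3.38% of other B lineage cells. Sox4 was 8.35-fold and 6.22-fold higher, Myb 8.55-fold and 4.81-fold, and Erg 19.2-fold and 6.91-fold. Tcf3 (E2A), Bach2 and Spib were the others, and Spib was no longer counted without the cells very rich in Igkc described below. Erg had 16 and 8 UMIs at 3 dpi and no longer reached the limit of 20 without the cells of 10 or more granulocyte progenitor UMIs. Ebf1 was 1.90-fold and 2.93-fold higher and so passed in 1 library only. Pax5, which all B cells up to the plasma cell use, had ratios of 1.04 and 1.64. Foxo1 and Klf2 lay on different sides of 1 at 1 and 3 dpi.

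Receptors of early B cells followed, with 5 of 9 measured genes higher and medians of 1.90 and 1.60. Il7r, the interleukin 7 receptor chain, was at 250 and 28.9 CPM at 1 dpi (8.64-fold, 7.27 to 10.3) and at 362 and 57.8 CPM at 3 dpi (6.26-fold, 4.86 to 8.12), and was found in 62.9% and 62.2% of progenitors. Cd93 (AA4.1), Cd24a (heat stable antigen), Bst1 (BP-3) and Il2ra (CD25) were the other 4, at 3.03-fold to 14.9-fold. The rest of the measured genes were not counted. Cd34 had ratios of 1.03 and 0.461, and Spn (CD43) 2.28 and 0.817. Ly6d had ratios of 0.764 and 1.23, and Cd2 0.714 and 2.06. Kit, Flt3 and Enpep were too sparse to be counted. Kit had 38 UMIs in progenitors at 1 dpi and 2 at 3 dpi, and Flt3 30 and 5.

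Genes of mature B cells were on the lower side, with 9 of 13 lower, none higher, and medians of -2.67 and -1.67. Ms4a1 was at 45.0 CPM in progenitors and 507 CPM in other B lineage cells at 1 dpi, and at 68.6 and 335 CPM at 3 dpi. Ighd, the delta constant region of naive B cells, was at 65.6 and 482 CPM, then at 52.0 and 138 CPM. Fcer2a (CD23) had 15 UMIs in progenitors at 1 dpi and 0 at 3 dpi, compared with 1954 and 101. Cr2 (CD21) had 20 and 0, Cxcr5 39 and 7, and Btla 11 and 6. The ratio to other B lineage cells was nearer to 1 at 3 dpi than at 1 dpi for Ms4a1 and Ighd, and in both genes the level of the other B lineage cells was lower at 3 dpi.

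The antigen presentation genes of MHC class II were lower in 7 of 8 cases, with medians of -3.13 and -2.07. Cd74, the invariant chain, was at 668 CPM in progenitors and 6302 CPM in other B lineage cells at 1 dpi and at 709 and 2956 CPM at 3 dpi. H2-Aa was at 250 and 2568 CPM, then at 295 and 1051 CPM. Ciita, the master activator of these genes, had ratios of 0.126 and 0.541 and so missed the limit at 3 dpi. A UMI of Cd74 was found in 49.0% and 44.9% of progenitors but also in 20.3% and 23.6% of the deeper Col1a1 cells.

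Homing genes were mixed, with 1 of 8 higher and 2 lower. Ccr7, which guides lymphocytes to lymph nodes, was at 94.7 and 628 CPM at 1 dpi and at 139 and 456 CPM at 3 dpi, and the gut homing integrin Itgb7 had ratios of 0.163 and 0.0898. S1pr4, a receptor for a lipid that draws lymphocytes out of tissue, was 2.39-fold and 2.19-fold higher, but not counted without the cells of high doublet score. Cxcr4, which holds progenitors in the marrow, had ratios of 0.491 and 1.16, and S1pr1, used for exit into the blood, 0.450 and 1.28. At 3 dpi the intervals, 0.986 to 1.35 for Cxcr4 and 0.893 to 1.81 for S1pr1, included 1, so both genes were lower at 1 dpi only.

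**Figure D3:**
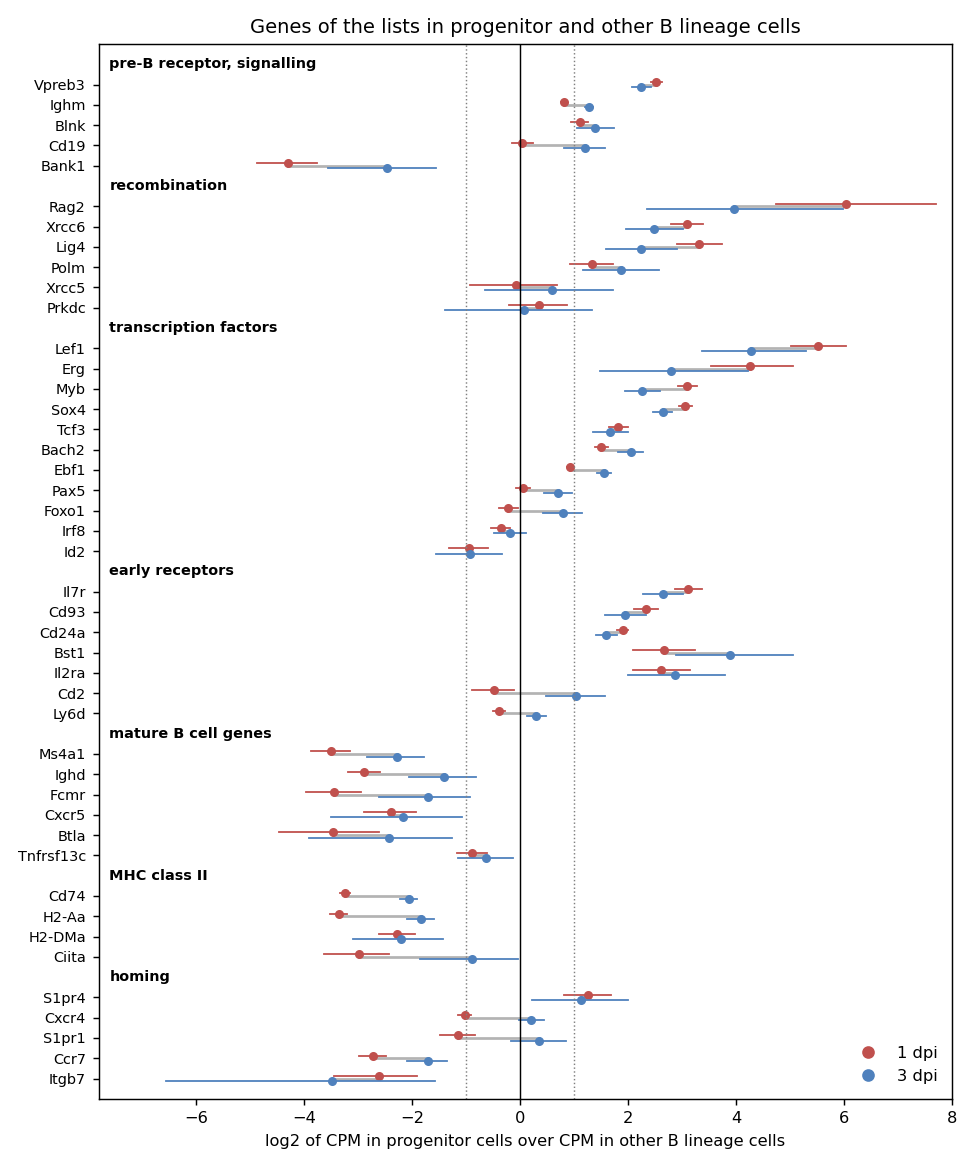
Log2 ratio of CPM in progenitors to CPM in other B lineage cells at 1 dpi (red) and 3 dpi (blue) for selected genes of 7 lists, with 95% intervals for counting error. The dotted lines mark 2-fold. Rag2 and Lef1 lie farthest to the right, and Bank1, Ms4a1 and the MHC class II genes to the left.

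By size over all measured genes, the 12 leading higher genes were Arpp21, Apold1, Lef1, 1700027J07Rik, Rag2, Epb41l4b, Rbm24, Cplx2, Gfra2, Rsph9, Smtnl2 and Gpam. Arpp21, an RNA-binding phosphoprotein first known from neurons, had 71 UMIs in 31 progenitors at 1 dpi and 41 in 14 at 3 dpi, compared with 3 and 2 UMIs in other B lineage cells. Its ratios were 111 and 70.9. A single cell held 17 of the 41 UMIs at 3 dpi, and 1 cell held 22 of the 42 UMIs of Rbm24. Gfra2 and Smtnl2 were not counted without the cells of high doublet score. Cplx2, which acts in vesicle release, was spread more widely, in 47.4% and 25.2% of progenitors and in 1.74% and 3.66% of other B lineage cells. Gpam, an enzyme of glycerolipid synthesis, was in 48.5% and 36.2% of progenitors and in 4.24% and 5.35% of the others.

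Among the 12 leading lower genes were Ighg2c, Igha, Ighg1, Clec4a2, Prg2, Wfdc21, Fcer2a, March1, Gpr174, Gpr183 and Slpi. Wfdc21 was not counted without the cells of 10 or more granulocyte progenitor UMIs, nor were Ighg1, Prg2 and Slpi without those of 1000 or more Igkc UMIs. Of these Fcer2a, March1, Gpr174 and Gpr183 were broadly carried, by 19.0% to 60.3% of other B lineage cells at 1 dpi. Gpr183 (EBI2), which positions B cells in lymphoid tissue, was in 547 of 1439 such cells and in 15 of 194 progenitors. The other 7 of these genes were carried by 1.32% to 9.31% of other B lineage cells at 1 dpi, and some rested on few cells. The 1722 UMIs of Ighg1 in other B lineage cells at 3 dpi came from 1 cell. No immunoglobulin variable segment was higher, and 7 of 8 measured were lower. At least 2 UMIs of heavy chain variable segments were in 2.85% and 6.48% of other B lineage cells at 1 and 3 dpi. For kappa variable segments the shares were 2.22% and 6.76%. The part of the cells very rich in Igkc, described below, in the segment counts was not tested.

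Igkc, the kappa light chain constant region, was the 1 of 4 light chain genes that was lower, and this rested on a few cells very rich in it. Its level was 8933 CPM in progenitors and 25120 CPM in other B lineage cells at 1 dpi, and 1882 and 69477 CPM at 3 dpi. Without the cells of 1000 or more Igkc UMIs, of which there were 1 and 23 at 1 dpi and 0 and 25 at 3 dpi, the levels were 1286 and 2537 CPM and then 1882 and 2185 CPM. The median per cell was 7 UMIs in progenitors and 9 in other B lineage cells at 1 dpi, and 5 and 7 at 3 dpi. The 1 progenitor of this kind held 11585 UMIs of Igkc, 6432 of Ighg2b and 1218 of Jchain, genes of plasma cells, with 1 UMI of Vpreb1.

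The groups by detected gene differed in genes that did not define them. In cells with Dntt, Erg was found in 62.3% of cells at 1 dpi and 52.6% at 3 dpi, compared with 4.42% and 0% of cells with Rag1 alone. Lef1 was in 84.9% and 73.7% of the Dntt cells and in 19.5% and 7.61% of those with Rag1 alone. The stem and progenitor cell receptors Kit and Flt3 were in 22.6% and 15.1% of the Dntt cells at 1 dpi and in 1.77% and 2.65% of the Rag1 alone cells, and at 3 dpi in 5.26% and 15.8% against 0% and 0%. The cells with Dntt were the deeper ones, with medians of 5282 and 3182 UMIs against 3229 and 1816 for Rag1 alone. The levels in CPM, which are scaled to the depth, differed in the same direction, with Lef1 at 525 and 533 CPM in Dntt cells and at 55.3 and 29.6 CPM with Rag1 alone.

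Cells with Rag1 alone carried another set. Il2ra (CD25) was in 38.1% and 31.5% of them and in 3.77% and 0% of Dntt cells, although these were deeper. The adhesion molecule Cd2 was in 32.7% and 37.0% against 5.66% and 5.26%, and the lymphocyte antigen Ly6d in 82.3% and 77.2% against 26.4% and 31.6%. Ikzf3 (Aiolos) was in 57.5% and 35.9% against 5.66% and 10.5%, and Spib stood at 973 and 877 CPM against 61.1 and 189 CPM. Igkc was in 94.7% and 83.7% of the Rag1 alone cells, with a median of 13 and 6 UMIs. In cells with Vpreb1 or Igll1 but neither Dntt nor Rag1 its median was 5 and 6 UMIs. At least 2 UMIs of Igkc were in 76.9% and 83.3% of these, and in 90.3% and 73.9% of Rag1 alone cells. Of Dntt cells 41.5% and 26.3% held a UMI of Igkc, with a median of 0, and so did 30.8% and 16.0% of the Col1a1 cells. Ighm was present in all cells of each group, at 6267 and 6621 CPM with Rag1 alone and at 2077 and 2145 CPM with Dntt. In these genes the order of the Rag1 alone cells and the Dntt cells was the same at 1 and 3 dpi.

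**Figure D4:**
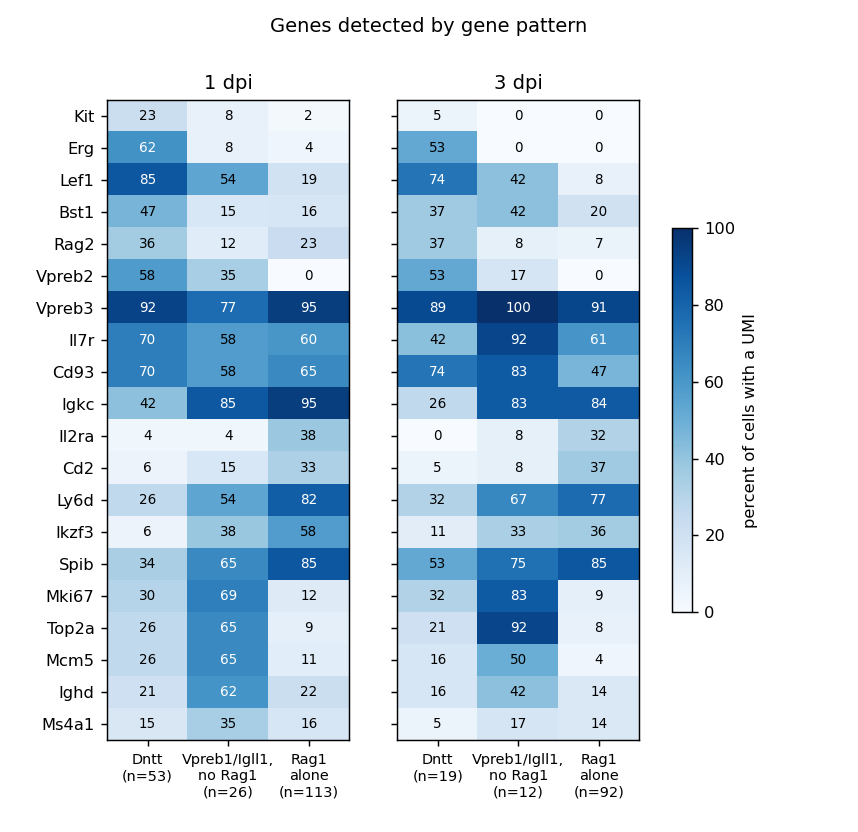
Percent of cells with a UMI of each gene in the groups with Dntt, with Vpreb1 or Igll1 but neither Dntt nor Rag1, and with Rag1 alone, at 1 dpi (left) and 3 dpi (right), with cell numbers under each column. Erg and Lef1 are darkest in the Dntt column, Mki67 and Top2a in the middle column, and Ly6d and Spib in the Rag1 column. At 3 dpi Igkc is about as dark in the middle column as in the Rag1 column.

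Cells with a surrogate light chain gene but neither Rag1 nor Dntt had a higher share of cycling cells than those with Dntt or with Rag1 alone. To compare cells of unequal depth, each cell of at least 1000 UMIs was thinned at random to 1000 and called cycling when it then held at least 2 UMIs over 24 cycling genes. By this measure 19 of 26 such cells at 1 dpi (73.1%, 52.2 to 88.4) and 11 of 12 at 3 dpi (91.7%, 61.5 to 99.8) were cycling. Vpreb1 was the only progenitor gene found in 9 of the 26 and 5 of the 12, and without these 15 of 17 (88.2%, 63.6 to 98.5) and 7 of 7 (100%, 59.0 to 100) were cycling. The share was 32.1% (19.9 to 46.3) and 26.3% (9.15 to 51.2) of cells with Dntt, and 17.9% (11.3 to 26.2) and 17.4% (10.1 to 27.1) of those with Rag1 alone. Of the few cells with a surrogate light chain gene and Rag1 but no Dntt, 1 of 2 and 2 of 4 were cycling. Before thinning the shares were 84.6% and 100% without Rag1 and Dntt, 77.4% and 47.4% with Dntt, and 44.2% and 29.3% with Rag1 alone. The cells without Rag1 and Dntt were also the deepest, with medians of 18108 and 7817 UMIs before thinning, and Ighd, a gene of later B cells, was in 61.5% and 41.7% of them. At 1 dpi 8 of the 26 had a high doublet score, 2 held 10 or more UMIs of granulocyte progenitor genes and 1 was the cell rich in Igkc. Without these 10 cells, 11 of 16 were cycling (68.8%, 41.3 to 89.0), and no cell was left out at 3 dpi. With such cells left out as well, 33.3% (19.1 to 50.2) of those with Dntt at 1 dpi were cycling, an interval that overlaps that of the 16 cells.

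**Figure D5:**
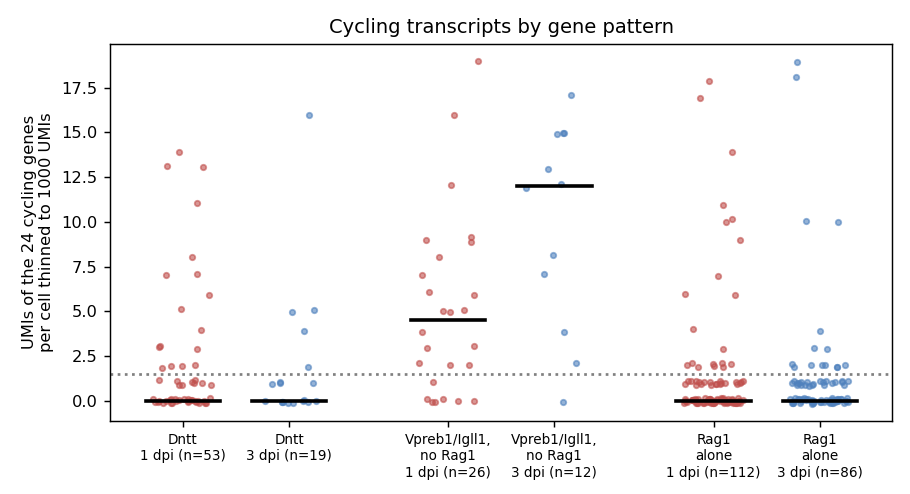
UMIs of the 24 cycling genes in each cell thinned to 1000 UMIs, by gene group and library, with points shifted slightly to be seen. Black bars are medians and the dotted line separates cells with fewer than 2 UMIs. The median was 4.5 at 1 dpi and 12 at 3 dpi in the middle group and 0 in cells with Dntt and with Rag1 alone. The 2 and 4 cells with Rag1 and a surrogate light chain gene but no Dntt are not drawn.

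Over all gene groups, 29.5% (23.2 to 36.5) of 193 progenitors at 1 dpi and 27.3% (19.6 to 36.1) of 121 at 3 dpi were cycling, compared with 10.1% (8.58 to 11.8) and 16.2% (12.3 to 20.6) of other B lineage cells. Below 1000 UMIs and left out were 1 and 6 progenitors and 12 and 27 other B lineage cells. The unthinned shares, over cells of any depth, were 58.8% and 40.2% of progenitors and 42.4% and 31.0% of the others. Of the 24 genes, 11 were higher in progenitors in both libraries and none was lower, with medians of 2.05 and 0.99. Without the cells of 10 or more granulocyte progenitor UMIs 18 were higher. Mki67 was at 431 and 91.9 CPM at 1 dpi and at 431 and 121 CPM at 3 dpi. Top2a, the topoisomerase of dividing cells, was 4.66-fold and 2.94-fold higher. The replication genes Mcm2 to Mcm7 were 2.44-fold to 3.24-fold higher at 1 dpi and 1.11-fold to 1.61-fold higher at 3 dpi, so none of these 6 was counted, while Mcm3 to Mcm7 were counted without the cells of 10 or more granulocyte progenitor UMIs.

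Progenitors at 3 dpi were then compared with those at 1 dpi. Of 8796 genes with at least 20 UMIs over both sums, 429 (4.88%) were at least 2-fold higher in progenitors at 3 dpi and 566 (6.43%) at least 2-fold lower, with a median log2 ratio of -0.02. In the lists of receptor signalling, recombination, transcription factors, MHC class II and homing no measured gene passed 2-fold. Among early receptors Bst1 and Cd2 were 2.18-fold and 2.20-fold higher at 3 dpi, while Kit, Cd34 and Spn were lower, and of mature B cell genes Cr2 was lower. Of cycling genes Mcm4, Mcm5 and Tyms were lower. As a description of genes that chose the cells, Vpreb1 was at 629 and then 383 CPM, Igll1 at 340 and 168 CPM, and Rag1 at 358 and 580 CPM. Among light chain genes Iglc1 and Iglc2, the lambda constant regions, were 3.96-fold and 2.03-fold higher at 3 dpi. No test was possible with 1 library at each time.

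Among genes with at least 20 UMIs in the higher and 5 in the lower sum, the largest differences between the time points were mostly not in B cell genes. Most of these differences rested largely on a single droplet. Outside that limit, C1qa had 59 UMIs at 3 dpi and 2 at 1 dpi, and Mpo had 3 and 888. Postn was at 433 CPM at 3 dpi and 3.97 CPM at 1 dpi, and 85 of its 208 UMIs came from 1 cell. A single cell held 100 of 103 UMIs of Mylpf, 1 held 101 of 103 UMIs of Des, and 1 held 27 of 29 UMIs of Tnnt2, all of them muscle genes. Col8a1 was at 102 and 5.96 CPM. Lower at 3 dpi were Ighg2b, Jchain, Ly6c2 (6 against 181 UMIs), Apod and Igkc. The 1 dpi cell rich in Igkc held 99.5% of the 1 dpi UMIs of Ighg2b and Jchain, and 1 cell held 403 of 491 UMIs of Apod. Without the cell rich in Igkc, this gene was at 1286 CPM at 1 dpi, below the 1882 CPM at 3 dpi, so its direction turned.

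Transcripts of other cell types differed in level between types. The T cell genes summed to 2 UMIs over 1 of 5 genes at 1 dpi and 7 UMIs over 3 genes at 3 dpi, and the 3 cartilage genes to 0. The 6 mesenchymal genes were at 2452 and 4778 CPM in progenitors, led by Dcn and Col3a1, and had a UMI in 75.8% and 87.4% of them. In other B lineage cells they were at 3174 and 7106 CPM. Other B lineage cells also held more of most lists that follow, so transcripts of other cell types moved with the comparison above. The 4 granulocyte progenitor genes were at 1649 CPM at 1 dpi, led by Mpo with 888 UMIs, and at 20.8 CPM at 3 dpi, compared with 2394 and 2514 CPM in other B lineage cells. Of the 2489 UMIs at 1 dpi, 98.9% were in 5 cells. The 4 macrophage genes were at 410 and 410 CPM, led by Lyz2, and at 646 and 1062 CPM in other B lineage cells. The 6 neutrophil genes were at 246 and 146 CPM, led by S100a9, with Ly6g at 0, and a UMI of them was in 79.9% and 30.7% of cells. In other B lineage cells they were at 5794 and 496 CPM. In both libraries S100a8, S100a9, Csf1r and C1qa were at least 2-fold lower in progenitors. Plasma cell genes were at 1151 CPM at 1 dpi, led by Jchain, and at 360 CPM at 3 dpi, led by Mzb1, compared with 3164 and 9820 CPM in other B lineage cells. The 3 natural killer genes were at 57.0 and 14.6 CPM, and Nkg7 held 70 of their 86 UMIs at 1 dpi. Ncr1 and Klrb1c, with 6 and 10 UMIs, were 4.01-fold and 4.25-fold higher in progenitors at 1 dpi, and each had 1 UMI there at 3 dpi. The 4 plasmacytoid dendritic cell genes were at 147 and 81.1 CPM, the 2 endothelial genes at 106 and 99.8 and the 2 megakaryocyte genes at 3.31 and 6.24. In other B lineage cells these lists were, in the same order, at 77.5 and 79.4, 232 and 196, 114 and 66.2, and 15.4 and 34.9 CPM. The part of these transcripts in the results was not tested beyond the leave-out values given. A high doublet score was given to 1 of 8, 30 of 194, 6 of 127 and 0 of 4 progenitors.

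The few cells of Uninjured and 7 dpi can be given cell by cell. In Uninjured 6 of 8 held Rag1 alone, with 1 or 2 UMIs each. A seventh, of 18936 UMIs, held 8 UMIs of Vpreb1, 12 of Igll1, 6 of Vpreb2, 10 of Vpreb3 and 8 of Mki67. The last held 1 UMI of Vpreb1, none of Vpreb3 and 33 of Cd74, and had a high doublet score. Of the 6 with Rag1, all held Vpreb3 (3 to 25 UMIs) and Ighm (6 to 21 UMIs). At 7 dpi the 4 cells held 3 to 6 UMIs of Vpreb3. One of them, of 1075 UMIs, held 5 UMIs of Vpreb1, 4 of Igll1, 1 of Dntt and 3 of Il7r with none of Igkc, and another held 4 of Vpreb1 and 1 of Rag1. Apart from the cell with a single Vpreb1 UMI in Uninjured, the cells of both libraries thus held Vpreb3. At 7 dpi 1 of the 4 cells also held T cell genes, with 3 UMIs of Cd3d and 1 of Cd3e.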

How the data were processed

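Tibial muscles were digested and run on the 10x platform, 1 library per group. Alignment and UMI counting were done by the authors in Cell Ranger 5.0.0 (STAR, mm10 per the labels), and the tables they deposited hold raw UMI counts for each gene in each barcode. Seurat 3.1.1 and down-sampling are also named, and the sources used here do not say on which side of the down-sampling the tables lie. Barcodes with over 10% mitochondrial UMIs were left out here. The cells and gene lists were chosen with earlier results of these data known. The named genes were the 7 genes of the gate, list genes, the 12 genes with the largest 2-fold difference in each direction (the smaller of the 1 and 3 dpi ratios), and 5 per direction between 1 and 3 dpi with at least 20 UMIs in the higher and 5 in the lower sum, and immunoglobulin variable segments were counted but not named. Results for 1 of these genes and for the erythroid list are not reported here. Counts were summed over cells and divided by all UMIs of those cells (CPM). A sum of 0 UMIs in one group was set to 3 UMIs for a ratio. Intervals are 95% Clopper-Pearson, Poisson or conditional binomial intervals (square-and-add for differences of shares) and cover counting error only. The planned test over libraries was not run, because 2 libraries held at least 20 progenitors and 3 were needed. Doublets were scored with Scrublet in scanpy 1.11.5, and the top 7.5% of scores in each library were taken as high, with those cells kept. Python 3.11.15, numpy 2.4.6, pandas 2.3.3 and scipy 1.17.1 were used. The call rule was tested on simulated data, and nothing is drawn from that here. Of 32285 gene identifiers, 32158 matched GENCODE vM21. Promoter sequences came from RefSeq (GRCm38.p6).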

Additional observations from a re-analysis of the deposited data

Results flagged for a closer look

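Vpreb1 UMIs appeared in cells with Col1a1 and without Ptprc, most of which did not enter the comparisons, above the limit that a count of 0 allows. Their share was 0.674% in Uninjured, 1.21% at 1 dpi, 0.904% at 3 dpi and 0.373% at 7 dpi. For 4 genes of the B lineage lists, the genes of the gate aside, the ratio of progenitors to other B lineage cells lay below 1 at 1 dpi and above 1 at 3 dpi, with counting intervals that leave out 1 in both libraries. The ratio went from 0.862 to 1.73 for Foxo1, from 0.650 to 1.16 for Klf2, from 0.764 to 1.23 for Ly6d and from 0.714 to 2.06 for Cd2. With 1 library at each time the difference was not tested.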

How the results depend on the processing

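The order of the shares (3 dpi, 1 dpi, Uninjured) held under every alternative run, while 7 dpi lay above Uninjured after thinning and with 2 progenitor UMIs, where these libraries held 1 to 3 such cells. With the gate applied after thinning each cell to 3000 UMIs the share at 1 dpi was 15.6%. Asking for 2 progenitor UMIs gave 0.704% in Uninjured, 8.82% at 1 dpi and 17.6% at 3 dpi. A mitochondrial limit of 5% gave 14.4% at 1 dpi. Unthinned, 58.8% of progenitors at 1 dpi and 40.2% at 3 dpi were cycling. With each cell thinned to 1000 UMIs, 81 genes were at least 2-fold higher and 153 lower at 3 dpi than at 1 dpi. Thinning leaves fewer UMIs in each cell, and its part in these lower counts was not tested. The genes higher and lower in progenitors in both libraries numbered 300 to 499 and 299 to 425 over the alternatives, compared with 399 and 287 in the main setting. The number of genes that reached 20 UMIs can differ between these settings, so the counts are not shares. Without the cells of 1000 or more Igkc UMIs, Igkc, Ighg1, Prg2, Slpi, Spib, S1pr4 and Rrm2 were no longer counted. Leaving out cells with granulocyte progenitor genes, those rich in Igkc or those found by Vpreb1 alone was decided after seeing the data. No paired analysis was possible because each group had 1 library, which concerns the comparisons between groups. Within libraries, the planned test of progenitors against other B lineage cells asked for 3 libraries with at least 20 progenitors, and it and its other count models, filters and leave-one-out fits were not run with the 2 that had them. In Uninjured and at 7 dpi the numbers of progenitors, 8 and 4, allowed a description cell by cell only.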
